A study of Ovis aries with 30 samples.

Results

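SLC6A6, TUB, TMEM182 and NEURL3 are 4 of the 28524 genes counted in the brown adipose tissue (BAT) and thyroid tissue of newborn Romney lambs. They were chosen by symbol because, in BAT, the read counts of the 6 cold lambs did not overlap with those of the 6 lambs at ambient temperature (AT), and the thyroid of the same lambs was then examined for the same pattern. The BAT difference between cold and AT lambs chose the genes, so it is given below as values with no test. Tests are given for the thyroid, for treated lambs against controls, for BAT against thyroid, and for correlations over the lambs of a group. Those with BAT libraries include lambs that the choice used, so their p for the 4 genes are not independent of it.

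The study holds 30 libraries, 1 from the BAT around the kidneys and 1 from the thyroid of each of 15 lambs. Cold lambs were kept for 2 days at 4 °C (n = 6), AT lambs for 2 days at 20 to 22 °C (n = 6), and control lambs were sampled at around 24 h after birth (n = 3). All were twin-born lambs, 1 was used per ewe, and each library came from 1 animal. The treated lambs were older than the controls, so treatment and age cannot be told apart against them. One of the controls, control 2, was left out of the main tests in both tissues, as the study did. Its values are given where they bear on a gene. Library totals were between 31556500 and 37025998 counts in BAT and between 25062784 and 30124871 in thyroid. Counts outside a pair of unnamed genes that dominates the BAT libraries were between 8093700 and 18276329 in BAT and between 18098434 and 26929601 in thyroid. UCP1, the uncoupling protein that defines brown adipocytes, was detected in every BAT library (normalized count 195 to 87348). The summed level of 12 thyroid follicular cell markers had a median of 2423650 in cold thyroids and 610 in cold BAT. In thyroid, AT 3 and control 1 stood apart by their skeletal muscle markers. Values of cold against AT in thyroid that rest on AT 3 are given with and without it.

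The 4 genes have different roles. SLC6A6 encodes TauT, the sodium- and chloride-dependent transporter that carries taurine into cells, where taurine serves as an osmolyte. TUB encodes the tubby protein, which binds membrane phosphoinositides and is related to the tubby-like proteins that deliver receptors to the primary cilium; loss of the mouse gene causes late-onset obesity. TMEM182 encodes a membrane protein known from skeletal muscle and from adipocyte differentiation. NEURL3 encodes a member of the neuralized family of E3 ubiquitin ligases, a family whose founding member acts on Notch ligands. Brown fat burns fatty acids to produce heat in the newborn lamb and turns into white fat after birth.

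On the Oar_rambouillet_v1.0 build, SLC6A6 lies at chr19:59671368-59752700 on the minus strand, with 17 merged exon blocks of 12676 bases in all. TUB lies at chr15:47579419-47671363 on the minus strand, with 13 blocks and 6223 bases. TMEM182 (chr3:105420647-105471006, minus strand, 5 blocks, 3518 bases) and NEURL3 (chr3:110174129-110181320, plus strand, 4 blocks, 1785 bases) are on one chromosome, 4.70 Mb apart. Counts are over whole genes, all exons together, UTRs included where annotated. The tested neighbours GRIP2, LMO1, EIF3F, MFSD9, ARID5A and ITPRIPL1 did overlap between cold and AT lambs in BAT. RIC3 overlaps TUB on the opposite strand, and whether the counting used the strand is not given in the sources used here. RIC3 reached 59 reads in a BAT library and 863 in a thyroid library, so the TUB counts in thyroid are the less certain.

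In BAT, the taurine transporter gene and the tubby gene were higher in every cold lamb than in any AT lamb, and TMEM182 and NEURL3 were lower. Values are normalized counts, which are reads divided by a size factor from the reference genes ACTB, RPL19 and HUWE1. Of 14905 genes tested in BAT, 103 (0.691%) had cold and AT lambs that did not overlap, 80 higher in cold (0.537%) and 23 lower in cold (0.154%). The edgeR quasi-likelihood test called 41 genes between cold and AT (0.275%; 0.188% higher and 0.0872% lower in cold), with an adjusted p under 0.05 and a log2 fold change (log2FC) of at least 1 in size. In whole tissue, fewer cells of a type and less RNA per cell cannot be told apart.

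SLC6A6 ranged from 2327 to 4306 in cold BAT, with a median of 3107, and its mean was 3215 ± 839 (SD, n = 6). In AT BAT it ranged from 113 to 1569, with a median of 257 and a mean of 455 ± 550 (SD, n = 6). Control 1 had 2515 and control 3 had 3383. The controls lay within the range of the cold lambs, and the AT lambs lay below both. AT 2, with 1569, was the only AT lamb above 309. The cold mean was 7.07 times the AT mean (log2FC 2.82 ± 0.54 SE), which was the second largest log2FC among the 80 genes that were higher in all cold lambs, and the lowest cold lamb was 1.48 times the highest AT lamb. Without AT 2 the log2FC was 3.79.

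TUB ranged from 579 to 1399 in cold BAT, with a median of 873 and a mean of 922 ± 336 (SD, n = 6). In AT BAT it ranged from 157 to 518, with a median of 176 and a mean of 233 ± 141 (SD, n = 6). The 2 controls had 2121 and 2381. The order was therefore AT, cold, control, with no overlap between the lambs kept, whereas control 2, left out, had 209, within the AT range. AT 2 was again the highest AT lamb, with 518 against 211 in the next. The cold mean was 3.95 times the AT mean (log2FC 1.98 ± 0.32 SE), and the gap between the groups was small, the lowest cold lamb being 1.12 times the highest AT lamb.

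TMEM182 was the least abundant of the 4 genes in cold BAT, at 15.98 to 24.8 normalized counts with a median of 20.6 and a mean of 20.6 ± 4.48 (SD, n = 6), which rests on 9 to 36 reads per library. In AT BAT it ranged from 37.9 to 355, with a median of 99.2 and a mean of 134 ± 122 (SD, n = 6). The 2 controls had 60.8 and 112. The cold lambs were low and close together, whereas the AT lambs were spread widely and the controls lay within their range. The AT mean was 6.51 times the cold mean (cold minus AT log2FC −2.69 ± 0.51 SE), and the lowest AT lamb, AT 2, was 1.53 times the highest cold lamb.

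NEURL3 ranged from 39.4 to 221 in cold BAT, with a median of 127 and a mean of 125 ± 62.8 (SD, n = 6). In AT BAT it ranged from 260 to 491, with a median of 389 and a mean of 379 ± 94.9 (SD, n = 6). The 2 controls had 60.1 and 70.9, within the range of the cold lambs. The AT lambs were thus the only group with counts above 221. The AT mean was 3.03 times the cold mean (cold minus AT log2FC −1.59 ± 0.31 SE), and the lowest AT lamb, again AT 2, was 1.18 times the highest cold lamb. For all 4 genes, AT 2 was the AT lamb closest to the cold lambs.

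**Figure D1:**
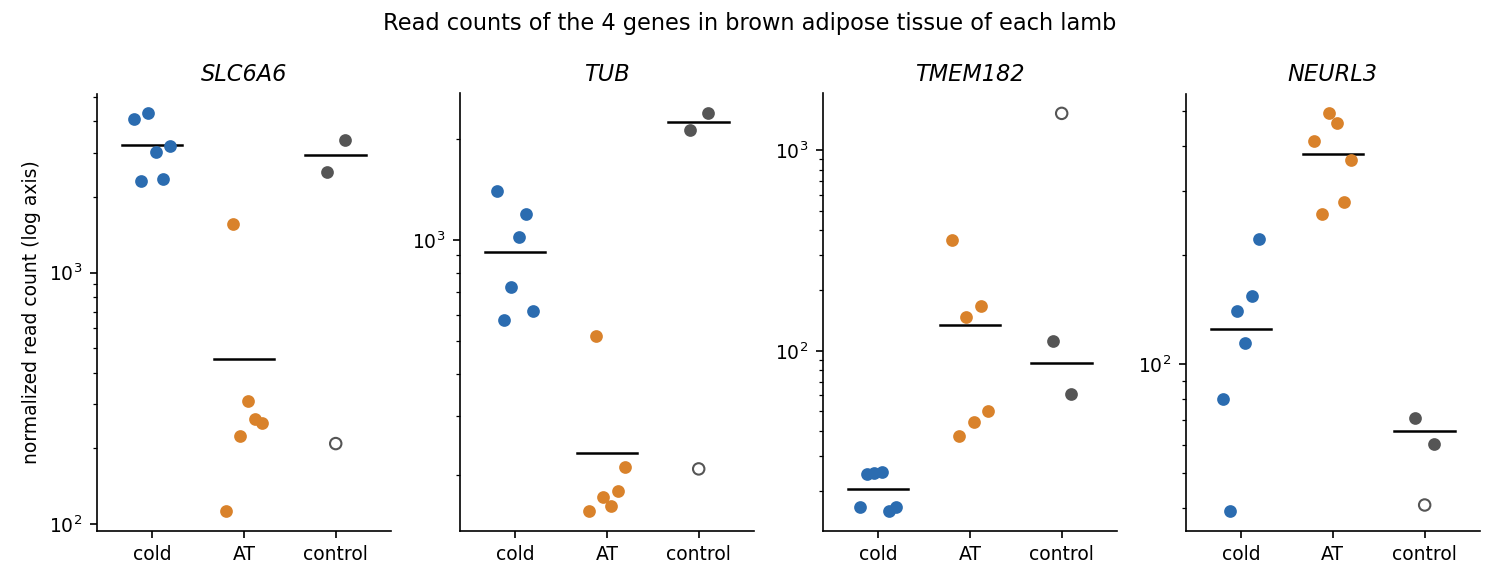
Normalized read counts (log axes, one panel per gene) of SLC6A6, TUB, TMEM182 and NEURL3 in BAT of cold, AT and control lambs. Each filled point is 1 lamb, the line is the group mean, and the open circle is control 2, which was left out. In each panel the 6 cold and the 6 AT points do not overlap, and TUB controls (2121 and 2381) lie above all cold lambs.

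Per length, as normalized counts per kilobase of exon, the order of levels in cold BAT was SLC6A6 (254 ± 66.2), TUB (148 ± 54.0), NEURL3 (69.9 ± 35.2) and TMEM182 (5.85 ± 1.27; all SD, n = 6). In AT BAT NEURL3 came first, at 212 ± 53.2. TMEM182 (38.1 ± 34.7), TUB (37.5 ± 22.6) and SLC6A6 (35.9 ± 43.4) followed with levels that did not differ beyond their spread. The taurine transporter thus had the highest mean per length of the 4 in cold BAT and did not stand above TUB or TMEM182 in AT BAT.

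AT 2 also held the highest summed level of brown adipocyte markers among the AT lambs (20464, against 2712 in the lowest AT lamb and 10304 to 24134 in the cold lambs). Its UCP1 count was 12953, and the other AT lambs had 195 to 6765. None of the 8 brown adipocyte markers tested in BAT was called between cold and AT; 1 had an unadjusted p under 0.05, where 12.3% of all genes did. Endothelial markers, 10 of 10 tested, summed to 45101 to 68385 in cold BAT and 36243 to 50358 in AT BAT, with 0 called and 2 at an unadjusted p under 0.05. General adipocyte markers, 11 of 12 tested, were lower in cold for 10 of 11 (median log2FC −0.40); 0 were called and 4 had an unadjusted p under 0.05, among them LEP, which encodes leptin (−1.81 ± 0.59), and PLIN1, which encodes a lipid droplet protein (−1.27 ± 0.48). Of these 4, 3 were lower in cold and 1, FABP4, was higher (0.80 ± 0.25). The sums of the adipocyte markers overlapped, at 53310 to 104458 in cold and 34671 to 142418 in AT BAT. Skeletal muscle markers in BAT summed to 489 to 823 in cold and 457 to 1111 in AT lambs, so their sums overlapped where TMEM182 did not. The part of adipocyte, brown adipocyte or endothelial content in the 4 genes' values was not tested.

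The rule's threshold is a gap of 1 between the groups. Among genes with a symbol, OLFML3 and LRRC4 were the nearest inside it, with ratios of 1.00053 and 1.0008 between the nearest lambs of the groups. EVA1B and RCE1 were the nearest outside, with 0.996 and 0.995. Their mean normalized counts in cold and AT lambs were 371 and 576 for OLFML3, 13.3 and 24.2 for LRRC4, 738 and 592 for EVA1B, and 263 and 298 for RCE1.

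In thyroid, the cold and AT lambs overlapped for each of the 4 genes: 0 of 4 were without overlap, where 31 of 16122 tested genes were (0.192%; 0.118% higher and 0.0744% lower in cold). The edgeR test called 0 genes between cold and AT in thyroid (0%), with 870 genes at an unadjusted p under 0.05 (5.4%) and 2 genes called by DESeq2. The exact permutation tests below take all splits of the 12 lambs into 6 and 6, and their smallest possible p is 0.00216.

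SLC6A6 ranged from 649 to 1394 in cold thyroid (median 999) and from 423 to 976 in AT thyroid (median 700). The control thyroids had 877 and 2707. The 2 treated groups overlapped between 649 and 976, with 4 of 6 cold lambs above every AT lamb and 3 of 6 AT lambs below every cold lamb. The means, 990 ± 262 in cold and 695 ± 236 in AT (SD, n = 6), were ordered as in BAT. The log2FC was 0.51 ± 0.29 (SE), with a 95% interval from −0.10 to 1.12 and an adjusted p of 0.921 by edgeR. An exact permutation test gave p = 0.0649 (two-sided, n = 6 and 6). The BAT log2FC of 2.82 lay above this interval; the difference between the tissues was not tested, because BAT chose the gene.

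TUB ranged from 117 to 165 in cold thyroid (median 132) and from 127 to 415 in AT thyroid (median 151). Both controls had between 190 and 192. The cold mean, 139 ± 20.2, was below the AT mean, 198 ± 110 (SD, n = 6), which is the opposite order from BAT. The log2FC was −0.51 ± 0.27 (SE; 95% interval −1.09 to 0.07, edgeR adjusted p = 0.916; exact permutation p = 0.173, two-sided). AT 3, the thyroid with the highest skeletal muscle markers, had the highest value, 415, and without it the log2FC was −0.16 (95% interval −0.53 to 0.22). The BAT value of 1.98 lay above both intervals.

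TMEM182 was at 4.02 to 12.2 in cold thyroid (median 8.95) and at 4.76 to 18.6 in 5 of the 6 AT thyroids, but at 4245 in AT 3. Control 1 had 847, and control 3 had 13.2. The cold and AT lambs overlapped, and AT 3 and control 1 stood apart from all other thyroids. The log2FC of −6.35 ± 2.04 (SE) had an edgeR adjusted p of 0.907, and the exact permutation p was 0.102 (two-sided). Without AT 3 the gene no longer had enough reads to be tested; with no filter on reads, its log2FC was −0.59 ± 0.72 (SE, edgeR adjusted p = 0.921), and the exact permutation p over the 462 splits of 11 lambs was 0.203.

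The thyroids with high TMEM182 were those with high skeletal muscle markers. These markers, 12 of 17 in the table tested, summed to 4049870 in AT 3 and 382736 in control 1, and to between 370 and 5246 in the other 13 thyroids. In thyroid, 12 of 12 tested muscle markers had an unadjusted p under 0.05 between cold and AT (5.4% of all genes), with a median log2FC of −8.78 against 0.00479 over all genes. Without AT 3 the count was 0 of 11 and the median 0.46. None of these markers passed adjustment. The 3 genes with the pattern most like TMEM182 over 14 thyroid libraries were TCAP (Pearson r = 0.984), which encodes the sarcomere protein telethonin, HSPB1 (0.984), which encodes a small heat shock protein, and TPM2 (0.984), which encodes a tropomyosin. In all, 123 tested genes had an r of at least 0.9 with TMEM182. Genes without a symbol, whose name starts with LOC, were left out of this search.

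**Figure D2:**
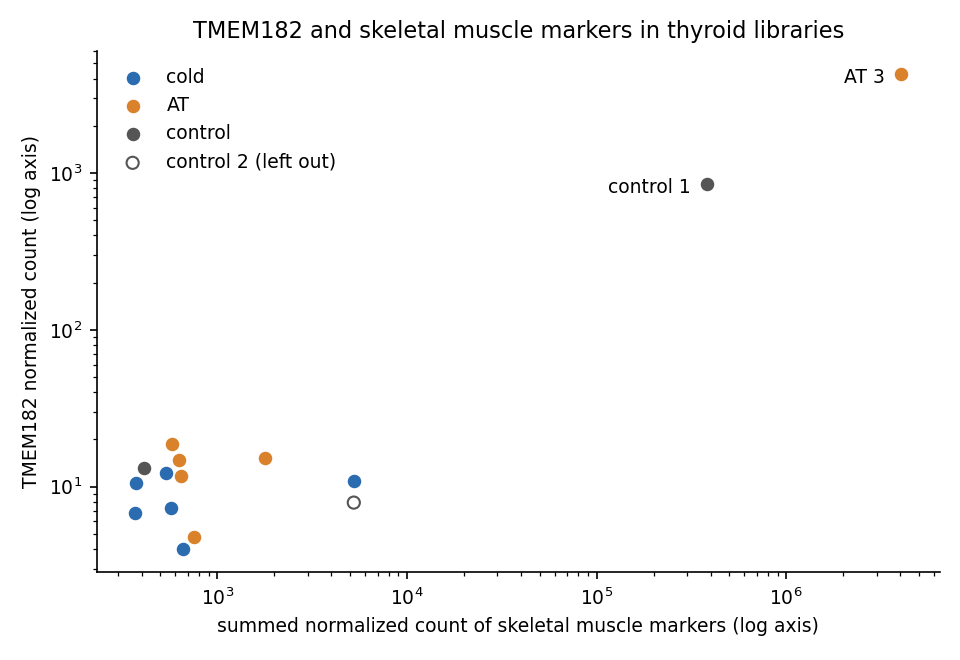
TMEM182 normalized count against the summed normalized count of skeletal muscle markers in 15 thyroid libraries (both axes logarithmic). Each point is 1 thyroid, coloured by group, and the open circle is control 2. AT 3 (4245) and control 1 (847) lie apart at the upper right, and the other 13 thyroids have muscle sums of 370 to 5246.

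NEURL3 was scarce in thyroid, at 3.01 to 30.9 in cold (median 10.1) and 6.67 to 71.8 in AT lambs (median 13.9). These values rest on 3 to 87 reads per library. The controls had 31.7 and 76.0. The groups overlapped, and AT 1 held the highest treated value. The log2FC was −0.93 ± 0.62 (SE; 95% interval −2.26 to 0.40, edgeR adjusted p = 0.923; exact permutation p = 0.271, two-sided), the same sign as in BAT, and the interval includes the BAT value of −1.59. Without AT 1 it was −0.25.

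**Figure D3:**
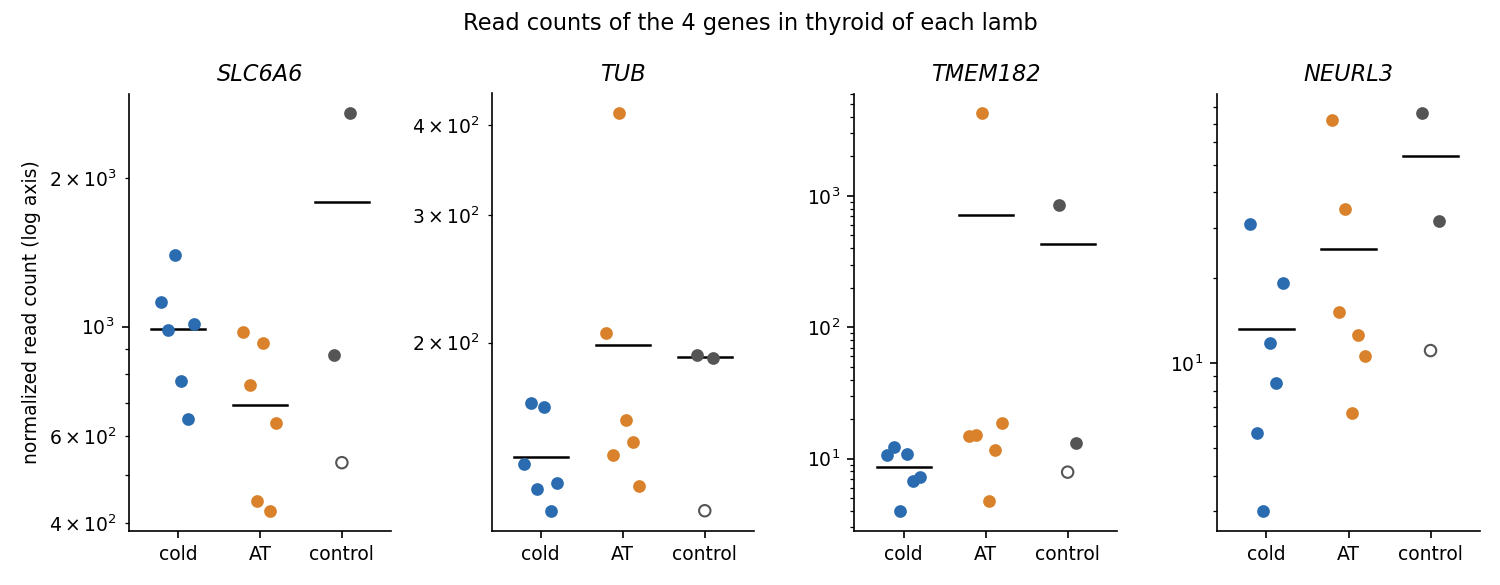
Normalized read counts (log axes, one panel per gene) of the 4 genes in thyroid of cold, AT and control lambs. Filled points are lambs, lines are group means, and the open circle is control 2, which was left out. Cold and AT lambs overlap in every panel, and 1 AT thyroid stands at 4245 for TMEM182.

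**Figure D4:**
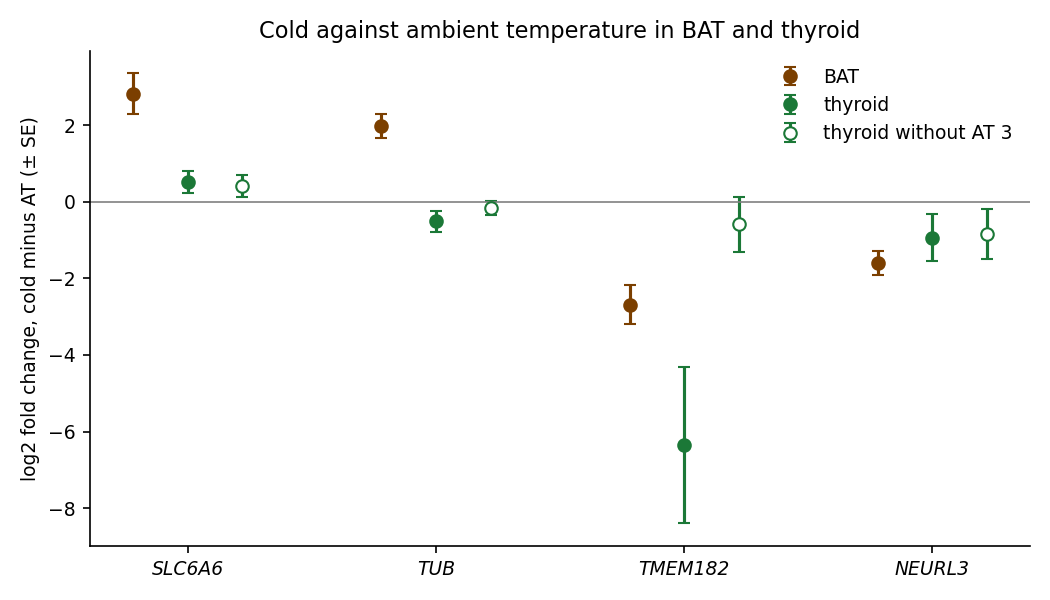
The log2FC of cold minus AT with its SE for each gene in BAT and thyroid (filled) and in thyroid without AT 3 (open). For SLC6A6 the BAT value is 2.82 and the thyroid value 0.51; for TUB the signs differ (1.98 and −0.51); for TMEM182 the thyroid value moves from −6.35 to −0.59 without AT 3.

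All 103 genes with no overlap in BAT were followed into the thyroid in the same way. Of the 96 that were tested there, 0 had cold and AT lambs that did not overlap, where the share over all thyroid genes was 0.192%, so that 0 is near the background. The sign of the thyroid log2FC was that of BAT for 60 of 96, and 8 had an unadjusted p under 0.05, as did 5.4% of all thyroid genes. The median size of the log2FC was 0.90 in BAT, where the genes were chosen, and 0.20 in thyroid, where the median over all tested genes was 0.14.

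Against the controls, the 4 genes differed among themselves. In BAT, treated lambs (the mean of cold and AT) were compared with controls 1 and 3. The choice of genes did not use this difference of means, but it used the same 12 treated lambs. Choosing genes without overlap favours a small spread within groups, so the p of the 4 genes are not independent of the choice. The contrast called 601 genes (4.03%), 294 upregulated (1.97%) and 307 downregulated (2.06%). TUB was downregulated in treated lambs (log2FC −2.28 ± 0.34 SE, edgeR adjusted p = 0.0026), and all 12 treated lambs lay below both controls. NEURL3 was upregulated (1.74 ± 0.47, adjusted p = 0.0377), with 11 of the 12 treated lambs above both controls. For SLC6A6 the log2FC was −1.29 ± 0.60 (adjusted p = 0.206), and without AT 2 it was −1.77 (adjusted p = 0.00282). For TMEM182 it was −0.71 ± 0.60 (adjusted p = 0.506).

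These tests depend on the controls. Control 2, the lamb left out, had 209 for SLC6A6, 209 for TUB and 40.9 for NEURL3 in BAT, all below controls 1 and 3, and 1525 for TMEM182, above every other BAT library. Its brown adipocyte markers summed to 137387, against 27387 and 35300 in the other controls, and its endothelial markers to 15912, against 55787 and 61228. When control 2 replaced either kept control, control 1 first and then control 3, TUB was no longer called (log2FC −1.41 and −1.25, adjusted p = 0.0869 and 0.117). With all 3 controls, TMEM182 was called lower in treated lambs (−3.38, adjusted p = 0.00526). NEURL3 passed the threshold narrowly, with an adjusted p of 0.0524 without AT 3 and 0.0521 without cold 5.

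In thyroid, treated lambs against controls gave 1371 called genes (8.5%; 2.19% of all genes upregulated and 6.31% downregulated), of which 74.3% were lower in treated lambs. SLC6A6 was among them (log2FC −1.11 ± 0.35 SE, edgeR adjusted p = 0.031), with all 12 treated lambs below control 3 and 6 of them below control 1. The median over all genes was −0.28 in this scaling and 0.03 with TMM scaling, under which 37.4% of calls were lower and SLC6A6 was not called (−0.73, adjusted p = 0.164). SLC6A6 rested on control 3 (2707), and with control 2 in its place the log2FC was 0.24 (adjusted p = 0.677). The log2FC was −0.21 ± 0.35 for TUB (adjusted p = 0.702), −2.44 ± 1.80 for TMEM182 (0.342) and −1.55 ± 0.71 for NEURL3 (0.122). For TUB the sign flipped under TMM scaling (0.09). None of these 3 passed the test. NEURL3 passed it without AT 1 (−1.90, adjusted p = 0.0338).

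Of the 4 genes, 3 were called higher in BAT than in thyroid by a fit that does not pair the tissues of a lamb. On a scale common to both tissues, BAT was compared with thyroid in the treated lambs, where 6907 of 17021 genes were called (40.6%). NEURL3 had the largest difference of the 4, with a BAT minus thyroid log2FC of 4.93 ± 0.40 (SE, edgeR adjusted p = 2.28e-11). TUB (2.85 ± 0.22, adjusted p = 8.01e-12) and SLC6A6 (1.91 ± 0.31, adjusted p = 5.62e-06) were also higher in BAT. For TMEM182 the log2FC was 0.77 ± 0.91 (adjusted p = 0.453), with AT 3 in the thyroid group. With the lamb as a replicate block, that is, comparing the 2 tissues of each animal, it was 2.99 ± 0.75 (edgeR adjusted p = 0.00243). All 4 genes were thus called higher in BAT in the paired fit. This contrast was not fitted without AT 3.

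Within single lambs, TUB and NEURL3 were higher in BAT than in thyroid in 6 of 6 cold and 6 of 6 AT lambs. SLC6A6 was higher in BAT in 6 of 6 cold lambs, with a log2 ratio of 2.71 to 3.33, but in 4 of 6 AT lambs, with a log2 ratio of −1.70 to 2.38 and a median of 0.24. TMEM182 was higher in BAT in 6 of 6 cold lambs and in 5 of 6 AT lambs, the exception, AT 3, being at −3.47. The BAT counts in these ratios chose the genes, so the difference between cold and AT lambs in them is a description.

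**Figure D5:**
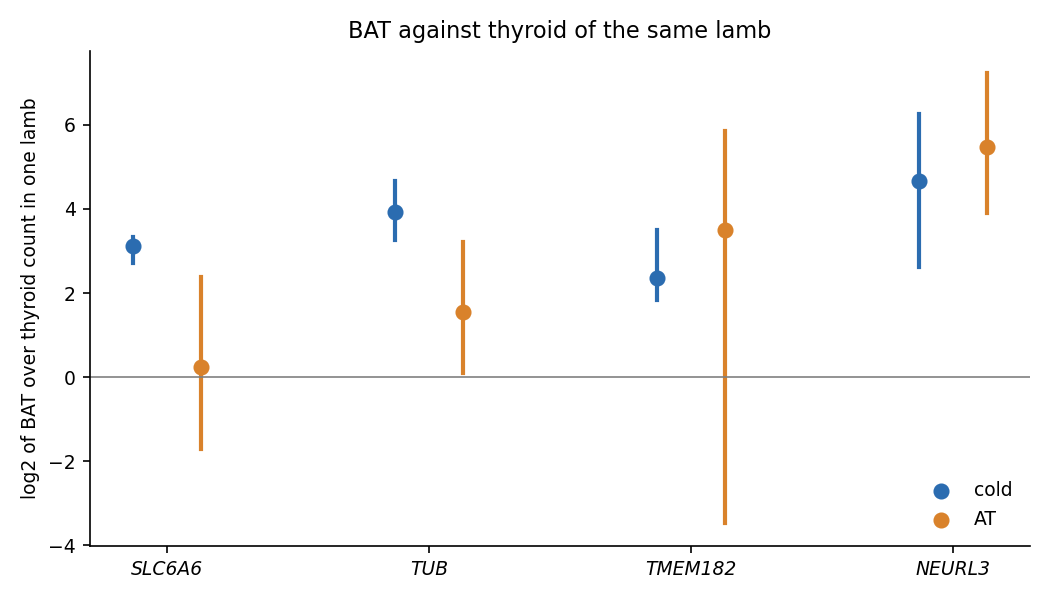
The log2 ratio of BAT over thyroid count within each lamb on a common scale, for cold and AT lambs (n = 6 each). The point is the median and the line runs from the lowest to the highest lamb. SLC6A6 medians are 3.12 in cold and 0.24 in AT lambs; NEURL3 and TUB lie above 0 in all 12 lambs.

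Whether a lamb with a high count in BAT also had one in thyroid was tested within each group, over 8 relations of log2 normalized counts. None passed adjustment. The closest was SLC6A6 in the cold lambs, with Pearson r = 0.77 (exact permutation p = 0.0722, adjusted p = 0.578, n = 6) and Spearman rho = 0.83 (exact permutation p = 0.0583, adjusted p = 0.411). Without the 2 lambs farthest from the median it was 0.93. In the AT lambs the r for SLC6A6 was 0.03 (exact permutation p = 0.978, adjusted p = 0.978), and it turned negative under both other scalings.

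Among themselves in BAT, the genes were compared in pairs within each group, 12 relations in all. The same BAT counts chose the genes, so these p are not independent of the choice. SLC6A6 and TUB had r = 0.93 in the AT lambs (exact permutation p = 0.0361, adjusted p = 0.258, n = 6) and rho = 0.60 (exact permutation p = 0.242, adjusted p = 0.713). Without the 2 lambs farthest from the median r was −0.36, so the relation rests on those lambs, AT 2 among them. TUB and NEURL3 had r = −0.70 in the AT lambs (exact permutation p = 0.0431, adjusted p = 0.258), with rho = −0.71 (exact permutation p = 0.136, adjusted p = 0.713) and r = −0.54 without the 2 farthest. In the cold lambs, r for SLC6A6 and TUB was 0.18 (exact permutation p = 0.704, adjusted p = 0.845). No pair passed adjustment.

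Other genes shared the pattern in BAT. Only genes with a symbol were searched, which leaves out those whose name starts with LOC. The likeness is Pearson's r of log2 counts over the 14 BAT libraries of the fit, which share the group differences that chose the 4 genes, so it is a description. Nearest to SLC6A6 were SGK1, a kinase that responds to glucocorticoids and osmotic stress (r = 0.968, mean 1973 in cold and 728 in AT), ENG, the TGF-beta coreceptor endoglin (0.959, 11626 and 4416), and TMEFF1 (0.956, 67.1 and 24.0). Nearest to TUB were TINAGL1, a matrix protein (0.949, 4541 and 1969), EEF1AKMT1, a lysine methyltransferase of an elongation factor (0.949, 173 and 133), and SHB, an SH2 adaptor (0.938, 188 and 129). For TMEM182 they were PCED1B (0.909, 58.8 and 82.7), the organic cation transporter gene SLC22A4 (0.836, 20.8 and 70.4) and the calcium exchanger gene SLC24A3 (0.824, 73.4 and 159). For NEURL3 they were EFNA1, an ephrin ligand (0.933, 889 and 1578), CPT1C, a carnitine palmitoyltransferase family member (0.902, 352 and 903), and NAV3 (0.879, 355 and 619). Among genes with a symbol, an r of at least 0.9 was reached by 17 for SLC6A6, 20 for TUB, 1 for TMEM182 and 2 for NEURL3.

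Over the 14 thyroid libraries the genes with a symbol nearest to SLC6A6 were PARM1 (r = 0.945), TBC1D2B (0.942) and TEK, the angiopoietin receptor (0.930). They were ITGA7, an integrin subunit of muscle (0.962), EHBP1L1 (0.954) and SOX8 (0.950) for TUB, and MEOX1 (0.879), AVPR2, the vasopressin V2 receptor (0.846), and ARHGEF3 (0.821) for NEURL3.

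The pathways around the 4 genes showed no called gene between cold and AT in either tissue. Of 16 other genes of taurine and osmolyte handling tested in BAT, 0 were called and 4 had an unadjusted p under 0.05 (12.3% of all genes did). Their median log2FC was −0.08, against −0.05 over all genes. The largest were LRRC8E, a subunit of the volume-regulated anion channel (log2FC −1.13 ± 0.34 SE, edgeR adjusted p = 0.219), and CDO1, the cysteine dioxygenase that feeds taurine synthesis (−0.89 ± 0.44, adjusted p = 0.429). In thyroid, 0 of 15 were called. AKR1B1, the aldose reductase that makes sorbitol, had a log2FC of −1.57 ± 0.67 (adjusted p = 0.907), and SLC16A6, a monocarboxylate transporter family member, had −1.33 ± 0.57 (adjusted p = 0.907). Without AT 3 they were at −0.12 and −0.47, and the genes of the list with an unadjusted p under 0.05 went from 3 to 1. Against the controls, CSAD, which makes hypotaurine, and PTER were upregulated in treated BAT (log2FC 1.02 ± 0.29 and 2.03 ± 0.55, edgeR adjusted p = 0.0449 and 0.0366). The inositol transporter gene SLC5A3 (−1.14 ± 0.23, adjusted p = 0.0036) and LRRC8C (−1.25 ± 0.39, adjusted p = 0.0302) were downregulated in treated thyroid. Over all genes, 1.97% were called upregulated in treated BAT. In treated thyroid 6.31% were called downregulated, and the median log2FC over all genes there moved with the scaling, as given above.

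Of 22 other tubby family and ciliary trafficking genes in BAT, 0 were called between cold and AT. An unadjusted p under 0.05 was reached by 3 of the 22 (12.3% of all genes did), and the median log2FC was −0.12. IFT122, of the intraflagellar transport complex that carries tubby-like proteins, had a log2FC of −1.05 ± 0.28 (SE, edgeR adjusted p = 0.152), and TTC8, of the BBSome, had −0.47 ± 0.21 (adjusted p = 0.381). Both values are opposite in sign to TUB. Of the 3 genes with an unadjusted p under 0.05, 1 was higher and 2 were lower in cold. In thyroid, 0 of 24 were called. The melanocortin receptor gene MC4R had 1.91 ± 0.86 (adjusted p = 0.907), with a cold mean of 771 ± 1122 (SD, n = 6), and the ciliary receptor gene GPR161 had −0.52 ± 0.24 (adjusted p = 0.909); without AT 3 they were at 1.77 and −0.29. Against the controls, TTC8 was upregulated in treated BAT (1.35 ± 0.31, edgeR adjusted p = 0.0219). The adenylate cyclase gene ADCY3 was downregulated in treated thyroid (−1.21 ± 0.32, adjusted p = 0.0141). The shift with scaling over all genes in treated thyroid, given above, bears on ADCY3 too.

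Of 25 other neuralized family and Notch genes in BAT, 0 were called between cold and AT. An unadjusted p under 0.05 was reached by 9 of the 25, where 12.3% of all genes reached it. The Notch ligand gene DLL4 had the largest log2FC, −1.18 ± 0.26 (SE, edgeR adjusted p = 0.0768), with 389 ± 131 in cold and 880 ± 340 in AT lambs (SD, n = 6). The endothelial receptor gene NOTCH4 followed with −0.79 ± 0.27 (adjusted p = 0.277). Both values have the sign of NEURL3, and neither passed the test. Of the 9, 6 were higher and 3 lower in cold, and over the list 13 of 25 genes were higher, with a median log2FC of 0.01. In thyroid, 0 of 26 were called, and NEURL1 (−2.48 ± 0.98) and NEURL2 (−1.33 ± 0.55) each had an adjusted p of 0.907. Without AT 3 they were at −0.56 and −0.36, and the genes of the list with an unadjusted p under 0.05 went from 2 to 0. Against the controls, DLL4 (−1.23 ± 0.28, edgeR adjusted p = 0.00711) was downregulated in treated thyroid. So were the Notch target genes HES1 (−1.002 ± 0.25, adjusted p = 0.0109) and HEY1 (−1.18 ± 0.38, adjusted p = 0.0345). In this contrast 6.31% of all genes were called downregulated. The median over all genes was −0.28, against 0.03 with TMM scaling. HES1 lay at the threshold of 1 in size, and the calls of these genes under TMM scaling are not given here.

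Of 18 genes of muscle differentiation, 7 beside TMEM182 were tested in BAT. None was called between cold and AT, and 3 had an unadjusted p under 0.05, where 12.3% of all genes did. MEF2C, a transcription factor of muscle, had −0.51 ± 0.20 (edgeR adjusted p = 0.312), and its relative MEF2A had 0.42 ± 0.14 (adjusted p = 0.266). In thyroid, 0 of 10 were called and 5 had an unadjusted p under 0.05, where 5.4% of all genes did. Without AT 3 this was 1 of 10. KLHL41, a sarcomere protein gene, had −7.87 ± 2.62 (adjusted p = 0.907) and −0.38 ± 1.27 without AT 3. Against the controls, KLHL40 was downregulated in treated thyroid (−3.93 ± 1.11, adjusted p = 0.0235), where control 1 carried muscle markers.

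The reference genes behind the scaling varied too. ACTB was at 25161 ± 4696 in cold BAT and 20617 ± 3145 in AT BAT (SD, n = 6), RPL19 at 10835 ± 912 and 11136 ± 1174, and HUWE1 at 3275 ± 669 and 3515 ± 789. In thyroid, the cold and AT means were 54856 and 58530 for ACTB, 30151 and 28298 for RPL19, and 8358 and 8306 for HUWE1. All 4 genes kept cold and AT lambs apart in BAT under TMM and under median-of-ratios scaling.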

How the data were processed

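RNA was sequenced from the BAT and thyroid of 15 lambs. Per the study's methods and its processing notes, the authors checked reads with FastQC 0.11.9, trimmed them with Trimmomatic 0.39, aligned them with STAR 2.7.7a to Oar_rambouillet_v1.0 and counted them per gene with featureCounts (Subread 2.0.0), reads mapping to several places included. The authors deposited whole-number counts, which were used as they stand. Chromosome numbers were taken from same-named genes of ARS-UI_Ramb_v3.0. For each of the 4 genes, 99.4555% or more of the same-named genes on its sequence lie on the chromosome given. That RefSeq table was otherwise used for names only.

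A gene was kept in a tissue if 10 libraries or more had 10 reads or more of it. Kept genes were tested by edgeR 4.0.16 (R 4.3.3, quasi-likelihood, robust, two-sided), with all 3 groups in one fit per tissue. Benjamini-Hochberg adjustment was over all tested genes. The offsets were size factors, the median ratio of ACTB, RPL19 and HUWE1 to their geometric means over libraries. In the libraries of the main fits they were 0.5375 to 1.84 in BAT and 0.741 to 1.21 in thyroid. For control 2 they were 0.465 in BAT and 0.632 in thyroid. DESeq2 1.42.0 was used for alternatives only. Genes were called at an adjusted p under 0.05 and a log2FC of at least 1 in size. The control left out was identified as the one to which the study's normalized counts are not proportional. Logs of normalized counts used a pseudocount of 1, and correlations and single genes were tested by exact permutation. The size of an edgeR SE is the log2FC divided by the root of F. The fit was tested on simulated data.

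The members and gene lists were chosen with earlier results of these data known. Named genes are the 4 members, the reference genes and, per tissue, the 3 genes with a symbol most alike by Pearson's r. Also named are the 2 with the largest log2FC per list and tissue where none was called between cold and AT. Genes called against controls were named after their values were seen. A gene that this rule names is not reported here. The alternatives were DESeq2, other scalings, filters and controls, RNA integrity as a covariate, the lamb as a block, and each library left out. The tag number in the labels ties the BAT and the thyroid library to one lamb, which pairs them. Over 14403 genes, the deviations of the 2 tissues of one lamb from their group means had a correlation of −0.003 to 0.371 (median 0.240), against a median of −0.022 between lambs, and 11 of 12 lambs were most like themselves.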

Additional observations from a re-analysis of the deposited data

Results flagged for a closer look

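In 16 groups of 6 lambs, each gene's highest and lowest library was set against the others by Dixon's gap test at the 95% level. A library far from the rest was found in 4 groups, and it was AT 2 in BAT or AT 3 in thyroid each time. The BAT groups hold the counts that chose the genes, so these 4 are a description. In BAT, AT 2 had 1569 normalized counts of SLC6A6, with the next AT lamb at 309, and 518 of TUB, with the next at 211. In thyroid, AT 3 had 415 of TUB, with the next AT lamb at 206, and 4245 of TMEM182, with the next at 18.6.

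Control 2, which no main test used, had 1525 normalized counts of TMEM182 in BAT, above the 112 and 60.8 of the other controls.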

How the results depend on the processing

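All 4 genes stayed without overlap in BAT and with overlap in thyroid under TMM and median-of-ratios scaling. Under these, 158 and 156 genes had no overlap in BAT. Without AT 3 (chosen after seeing the data), 68 of 15982 genes had no overlap in thyroid, against 31 of 16122 with it. With 1 AT lamb fewer, groups separate more readily, so these counts are not on one scale. In BAT, cold against AT called 145 genes by DESeq2, 0 with all 3 controls, 23 with only the groups compared and 19 with RNA integrity as a covariate. With 1 library left out it called 0 to 96. It called 0 without cold 4, 2 without AT 3, and 0 without each kept control, replaced by control 2. DESeq2 called 2 in thyroid. Treated against control in BAT called 1038 by adjusted p alone, 981 by DESeq2, 1199 with all 3 controls and 429 to 777 with 1 treated library left out, and 1233 and 1282 without control 1 and control 3, where control 2 took their place; in thyroid, 3991, and 886 and 883 under TMM and median-of-ratios scaling.

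With 1 treated library left out, the treated minus control log2FC in BAT ranged from −1.77 to −1.17 for SLC6A6, from −2.48 to −2.19 for TUB, from −0.997 to −0.579 for TMEM182 and from 1.63 to 1.81 for NEURL3. With control 2 in place of control 1, and then of control 3, it was −0.51 and −0.10 for SLC6A6, −1.41 and −1.25 for TUB, −3.84 and −3.89 for TMEM182, and 2.16 and 2.03 for NEURL3. TMEM182 was −3.38 with all 3 controls. In thyroid, with 1 treated library left out, it ranged from −1.17 to −1.04 for SLC6A6, from −0.39 to −0.15 for TUB and from −1.90 to −1.45 for NEURL3; when control 2 replaced control 1 or control 3, it was −0.96 and 0.24 for SLC6A6 and −0.23 and −1.26 for NEURL3. SLC6A6 was −0.73, −0.74 and −0.72 under TMM scaling, median-of-ratios scaling and all 3 controls, and TUB was 0.088 and 0.0899 under the first 2 and 0.11 and 0.10 with those replacements. Under TMM and median-of-ratios scaling, r between tissues was −0.049 and −0.070 for SLC6A6 in AT and 0.039 and 0.067 for TUB in cold lambs; in cold BAT it was −0.033 and −0.059 for SLC6A6 with TUB and −0.55 and −0.52 for SLC6A6 with TMEM182. The cause was not tested for any of these. With the lamb as a replicate block, the BAT minus thyroid log2FC of TMEM182 was 2.99; the block changed no other call on the 4 genes. TMEM182 in thyroid fell under the filter in several alternatives and has no value there. Few reads limit the precision of TMEM182 and NEURL3 in thyroid.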
